A study of Mus musculus with 3 samples.

Results

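The interferon-stimulated gene module is a set of 42 named mouse genes, chosen by symbol from the 31053 genes listed for each library, and all 42 symbols were found. It was read in single tdTomato+ cells sorted from the hippocampi of mice, in 3 droplet sequencing runs. All animals had the genotype Cx3cr1CreERT2/+ ; Rosa26tdTomato/+; NestinTK-eGFP/+ and received tamoxifen at 100 mg/kg on 4 days, which switches on the reporter in cells that use the Cx3cr1 locus. These are microglia and related macrophages, so other brain cells enter only as carry-over of the sort. The labels describe 12 animals, 6 male and 6 female, do not assign them to runs, and give a single group, so there is no untreated or interferon-treated control. Hippocampi were taken after PBS perfusion, myelin was removed on magnetic columns and viable cells were collected by flow cytometry. All comparisons below set cell populations of the same runs against each other (n = 3 runs).

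Type I interferons bind a receptor on the cell surface and activate kinases inside it. The complex ISGF3, which holds Stat2 and Irf9, then binds interferon-stimulated response elements in promoters and raises the transcription of antiviral genes. Interferon gamma acts through other elements and is known for raising guanylate-binding proteins and MHC class II genes. In the brain, microglia and border macrophages respond to both, and small numbers of microglia that express such genes are found in animals without infection.

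The promoters were searched for interferon response elements, which the choice of members did not use. RefSeq promoter windows of GRCm38.p6, each running from 250 bases before to 50 bases after an annotated start, were held for 33 of the 42 genes in 41 windows. The core GAAANNGAAA, or TTTCNNTTTC on the other strand, was found in 20 of the 41 windows (48.8%) and in 18 of the 33 genes, against 3.44% of all 32851 windows. At least 2 matches, which may overlap, stood in 8 windows (19.5%), against 0.225% of all windows. The gamma-activated core TTCNNNGAA, which is its own reverse complement, was found in 7 windows (17.1%), against 8.30% of all windows. A match describes letters and is not a bound site. The 200 bases before the RefSeq start are printed for 6 genes on which results turn, with the fixed letters of each interferon response core in capitals, and with the coordinates and strand of the stretch.
Isg15 (chr4:156200819-156201018, minus strand): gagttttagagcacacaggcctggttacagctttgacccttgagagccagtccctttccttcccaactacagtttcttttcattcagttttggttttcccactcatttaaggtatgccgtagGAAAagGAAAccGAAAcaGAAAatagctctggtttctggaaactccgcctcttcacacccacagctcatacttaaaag
Ifit1 (chr19:34640689-34640888, plus strand): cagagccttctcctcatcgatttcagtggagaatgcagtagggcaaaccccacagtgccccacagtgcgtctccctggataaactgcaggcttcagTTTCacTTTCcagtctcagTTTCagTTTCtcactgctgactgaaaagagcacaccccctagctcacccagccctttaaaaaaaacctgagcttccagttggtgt
Ifit3 (chr19:34583329-34583528, plus strand): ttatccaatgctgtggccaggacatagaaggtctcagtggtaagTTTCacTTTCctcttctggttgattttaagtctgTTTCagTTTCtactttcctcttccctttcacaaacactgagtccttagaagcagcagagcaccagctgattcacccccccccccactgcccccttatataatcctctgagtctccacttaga
Ifit3b (chr19:34607757-34607956, plus strand): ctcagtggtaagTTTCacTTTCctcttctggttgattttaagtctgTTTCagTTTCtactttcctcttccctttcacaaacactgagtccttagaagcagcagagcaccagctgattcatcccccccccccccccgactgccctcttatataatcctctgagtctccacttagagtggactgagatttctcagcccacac
Bst2 (chr8:71537473-71537672, minus strand): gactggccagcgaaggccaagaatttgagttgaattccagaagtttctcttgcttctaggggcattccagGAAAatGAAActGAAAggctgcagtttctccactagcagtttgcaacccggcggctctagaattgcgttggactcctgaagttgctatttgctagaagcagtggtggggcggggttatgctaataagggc
Gbp2 (chr3:142620463-142620662, plus strand): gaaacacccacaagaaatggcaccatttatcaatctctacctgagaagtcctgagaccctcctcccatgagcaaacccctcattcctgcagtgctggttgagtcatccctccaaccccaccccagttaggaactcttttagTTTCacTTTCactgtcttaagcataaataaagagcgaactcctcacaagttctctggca
In the Isg15 stretch 3 overlapping matches began 78, 72 and 66 bases before the start, each sharing its GAAA with the next. Bst2 had an overlapping pair of matches, Ifit1 a pair that did not overlap, and Gbp2 a single one. The stretches of Ifit3 and Ifit3b hold the same pair of matches with the same letters between them. Their longest transcripts were 97.8% identical over 1700 aligned bases, so reads can be split between them and the levels of both are uncertain. In the gene annotation used here (GENCODE M21), Ifit1 and Gbp2 begin at 34640871 and 142620602, inside the printed stretches, so the end of each overlaps the first exon of a longer model.

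**Figure D1:**
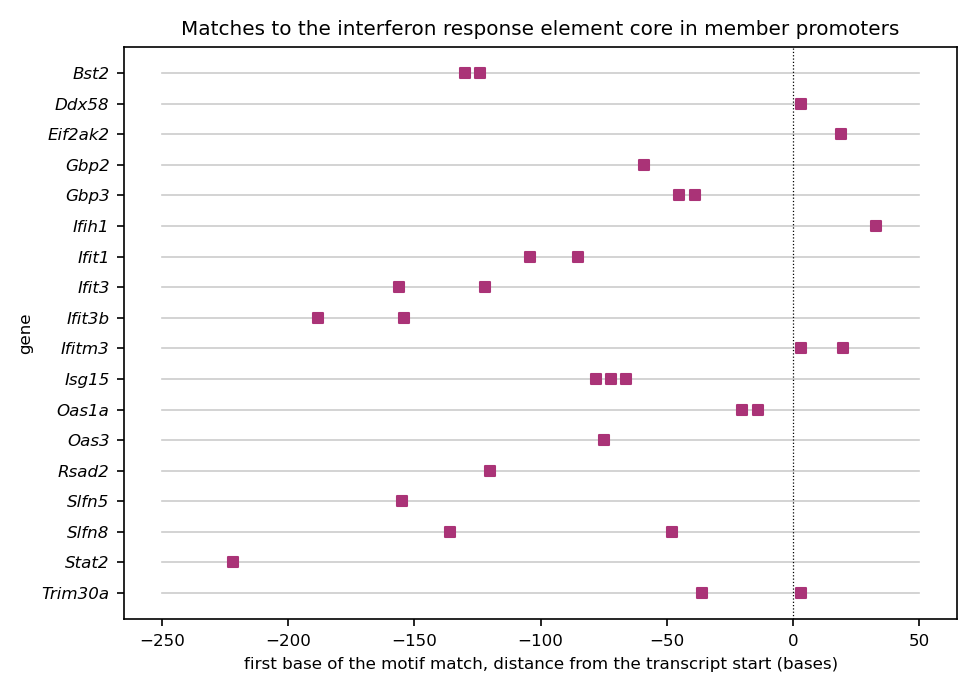
Positions of the interferon response core in the promoter windows of the 18 genes with a match. The horizontal axis is the distance in bases from the RefSeq transcript start (dotted line), each square is the first base of a match, and grey lines mark the window; the 3 squares of Isg15 stand side by side.

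Cells were kept with at least 1000 UMIs (unique molecular identifiers, which count RNA molecules rather than reads), 500 detected genes or more, and a mitochondrial share of UMIs no higher than 10%, which left 19791 cells. Populations were taken by markers that are no members. Border macrophages, which line the meninges, vessels and choroid plexus, held UMIs of at least 3 of 9 markers such as Mrc1, Pf4 and Lyve1 (61, 36 and 57 cells in runs 1, 2 and 3). MHC class II-high cells were other cells with at least 0.5% of their UMIs from Cd74, H2-Aa, H2-Ab1 and H2-Eb1 and a UMI of at least 3 of these 4 genes (11, 20 and 35 cells). Microglia held at least 3 of 11 markers such as P2ry12 and Tmem119 and fell in neither population (6682, 6537 and 5929 cells). Levels are given as CPM, counts per 1000000 UMIs summed over a population in a run. The sums ranged from 23212047 to 31446383 UMIs in microglia, from 164058 to 514241 in border macrophages and from 76697 to 320606 in MHC class II-high cells, where a single UMI of run 1 is worth more than 10 CPM. CPM was not divided by transcript length, so levels are compared between populations for each gene and not between genes.

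The markers that chose the populations give a description and no test. Border macrophage markers summed to 5705, 6449 and 9657 CPM in border macrophages and to at most 7.3 CPM in microglia. Microglia markers summed to 36397 ± 5276 CPM (SD, n = 3) in microglia, and to 17871, 10521 and 6729 CPM in border macrophages. Markers of other myeloid cells, which did not choose the MHC class II-high cells, were mixed there: 6 dendritic cell markers summed to 287, 129 and 802 CPM and 6 monocyte markers to 300, 1147 and 864 CPM there, with Chil3 and Vcan at 0, against at most 3.14 and 5.64 CPM in microglia, from which cells with UMIs of 3 or more of either list had been left out. Of the border macrophages, 55 of 154 also passed the MHC class II share. UMIs of Xist together with Y-linked genes, which mark droplets holding cells of both sexes or free RNA, were found in 14, 1 and 4 border macrophages and in 1, 0 and 3 MHC class II-high cells. These were 22.95% of the border macrophages of run 1, and counts without them are given with the results they touch. The runs shared 7 to 10 cell barcodes by pair.

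In microglia the module was low and nearly equal between runs. Its 42 genes together gave 1085, 933 and 1037 CPM in runs 1, 2 and 3, which is 1018 ± 77.7 CPM (SD, n = 3). Cells with at least 2000 UMIs were thinned at random to 2000, so that depth was equal. Microglia below 2000 UMIs were left out of this step (78, 361 and 163 in runs 1, 2 and 3). The median microglial cell then held a UMI of 1 of the 42 genes, and 20.2% of the 18546 cells held none. Only 4.96% of them held UMIs of 5 or more. The highest and lowest runs of Bst2, which encodes tetherin, an antiviral membrane protein, were 168 and 152 CPM.

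Of the signalling members, Irf9 and Stat2, which join in ISGF3, were present in every run, Irf9 at 52.1, 47.3 and 49.2 CPM and Stat2 at 20.6, 15.2 and 20.5 CPM. Irf7, a transcription factor that amplifies interferon production, was at 6.01, 5.94 and 4.14 CPM. These 3 genes differed by little between runs.

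The Ifit genes, whose proteins bind foreign RNA, varied more. Ifit3 was at 13.3, 8.01 and 9.39 CPM and Ifit1 at 6.04, 2.61 and 2.67 CPM, in each case highest in run 1. Isg15, a ubiquitin-like protein that is attached to other proteins, was at 14.5, 7.34 and 6.16 CPM, and Usp18, the protease that removes it and damps receptor signalling, at 4.58, 4.85 and 5.17 CPM. Run 1 was thus the highest for Isg15 and the lowest for Usp18.

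The 2'-5' oligoadenylate synthetase group, which activates an RNA-degrading enzyme, included genes near the limit of detection in microglia. Oas2 was at 0.223, 0.169 and 0.258 CPM, Oas3 at 0.0636, 0.0422 and 0 CPM, and the related Oasl1 at 0.254, 0.253 and 0.302 CPM. By contrast the RNA sensors Ifih1 and Ddx58 lay between 12.8 and 25.9 CPM in every run. A low level over all microglia can come from few cells or from little RNA in each cell, and the sums of a run cannot tell the 2 apart. The counts per cell further on bear on this.

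**Figure D2:**
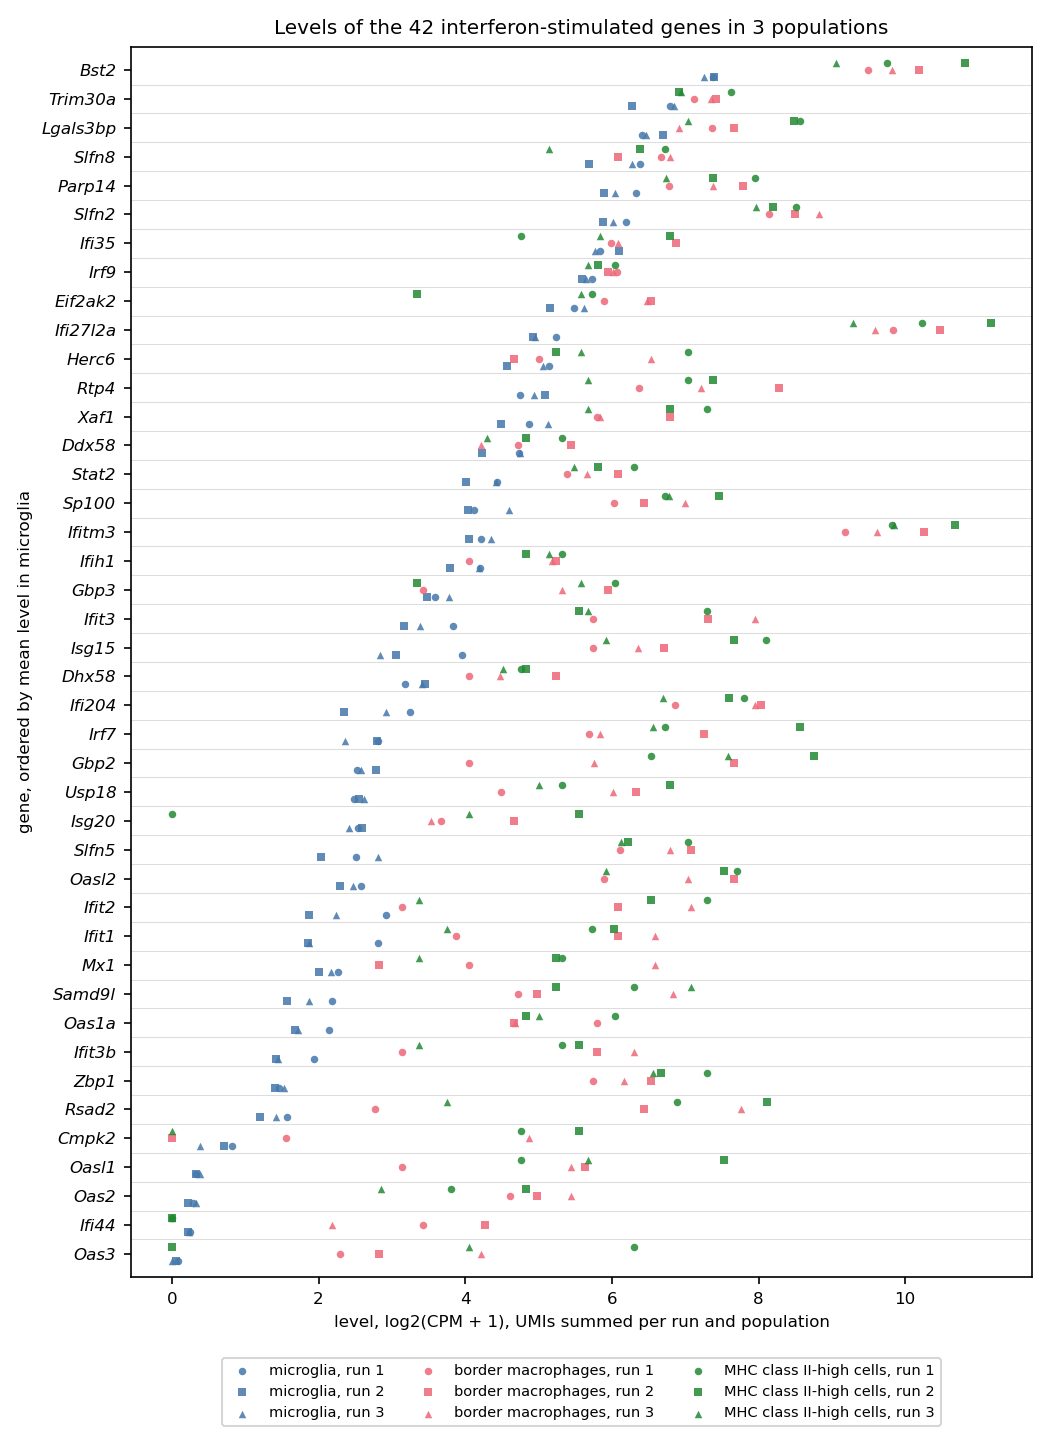
Level of each of the 42 genes on the log2(CPM + 1) scale (horizontal axis), by population (colour) and run (shape), with genes ordered from top to bottom by their mean CPM in microglia. For Bst2, Ifitm3 and Ifi27l2a all 6 points of border macrophages and MHC class II-high cells lie to the right of the microglial points, while those of Slfn8 and Ifi35 overlap them. For Eif2ak2 the MHC class II-high points overlap the microglial points and the border points lie to their right.

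Border macrophages carried far more of the module. The 42 genes together gave 4204, 7717 and 6229 CPM there, or 6050 ± 1763 CPM (SD, n = 3), and the lowest border run was above the highest microglial run. Counts were tested with edgeR's quasi-likelihood test in a fit with a term for each run, and p-values were adjusted by the Benjamini-Hochberg method over every gene tested. With no filter on low counts all 42 genes could be tested, and 35 were higher and 0 lower at an adjusted p of 0.05, where 4.80% of all 18480 genes were higher and 3.01% lower. The median log2 difference was 3.44 over the 42 genes and -0.45 over all genes. The 7 genes that did not pass were Irf9, Ifi35, Slfn8, Herc6, Ifih1, Ddx58 and Isg20.

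With edgeR's filter on low counts, 35 of the 42 genes were tested and 30 were higher and 0 lower, where 13.1% of all 5326 tested genes were higher and 7.90% lower. Without cells carrying transcripts of both sexes 29 genes were higher. Of those 35, 26 were over the filter level of 31.2 CPM in fewer than 3 microglial runs (22 of them in none) and passed it with the help of another population, so the share is no support. The 9 others were above it in every microglial run (Irf9, Ifi35, Slfn2, Slfn8, Bst2, Trim30a, Parp14, Eif2ak2 and Lgals3bp). Of these 9, Bst2, Slfn2, Parp14, Eif2ak2, Lgals3bp and Trim30a were higher in border macrophages, and Irf9, Ifi35 and Slfn8 did not pass. Differences below come from the filtered fit, except for the 7 genes it left out. For the 26 members that passed the filter with help, adjusted p-values are tied to that pass and are no support by themselves. The same holds for such members in the comparisons further on. All 30 members higher in border macrophages with the filter were also higher without it.

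Of the effectors at the membrane, Ifitm3, which blocks the entry of viruses at endosomes, was at 17.6, 15.6 and 19.4 CPM in microglia and at 578, 1219 and 786 CPM in border macrophages, a log2 difference of 5.73 ± 0.27 (SE; edgeR quasi-likelihood, adjusted p = 3.7e-13). The ranges were far apart. Bst2 was at 166, 168 and 152 CPM against 720, 1164 and 906 CPM (log2 difference 2.69 ± 0.25, edgeR adjusted p = 4.66e-08). Ifi27l2a, an interferon-induced gene of the Ifi27 family, rose from 36.8, 29.3 and 29.9 CPM to 914, 1426 and 765 CPM (5.13 ± 0.29, edgeR adjusted p = 1.01e-11). Each border run of these 3 genes was above every microglial run.

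Among the nucleic acid sensors, Zbp1, which binds Z-form nucleic acids, was at 1.75, 1.64 and 1.9 CPM in microglia and 52.5, 91.4 and 70.5 CPM in border macrophages (log2 difference 5.47 ± 0.43, edgeR adjusted p = 2.45e-09). Ifi204, a DNA sensor, went from 8.46, 4.09 and 6.55 CPM to 115, 262 and 247 CPM (5.14 ± 0.34, edgeR adjusted p = 1.37e-10). The groups did not overlap for either gene. The cytosolic RNA sensors behaved otherwise: Ifih1, which encodes MDA5, had a log2 difference of 0.92 ± 0.44 (edgeR adjusted p = 0.165) and Ddx58, which encodes RIG-I, one of 0.25 ± 0.38 (unfiltered edgeR fit, adjusted p = 0.967). Their ranges overlapped those of microglia.

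Among the enzymes and their relatives, Oasl2 was at 4.96, 3.92 and 4.52 CPM in microglia and 58.3, 201 and 130 CPM in border macrophages (log2 difference 4.89 ± 0.40, edgeR adjusted p = 5.44e-09). Oasl1, which limits Irf7 translation, went from 0.254, 0.253 and 0.302 CPM to 7.78, 48.8 and 42.3 CPM (6.76 ± 0.86, edgeR adjusted p = 3.83e-06). Rsad2, which encodes the antiviral enzyme viperin, went from 1.97, 1.31 and 1.68 CPM to 5.83, 85.3 and 215 CPM (5.87 ± 0.85, edgeR adjusted p = 2.15e-05). For all 3 genes run 1 was the lowest border run, and for Rsad2 it was close to the microglial level while run 3 was far above it. In run 1, 22.95% of border macrophages held transcripts of both sexes, and whether this bears on its lower levels was not tested.

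Run 1 was also the lowest border run of the Ifit genes. Ifit3 was at 52.5, 158 and 247 CPM in border macrophages against 10.2 ± 2.72 CPM (SD, n = 3) in microglia (log2 difference 3.97 ± 0.42, edgeR adjusted p = 2.95e-07). Ifit2 reached 7.78, 67 and 134 CPM, so its border level in run 1 was close to the 6.55 CPM of microglia of that run, and Ifit1 reached 13.6, 67 and 95.2 CPM. Isg15 (52.5, 104 and 81.1 CPM, log2 difference 3.24 ± 0.41, edgeR adjusted p = 4.26e-06) and Usp18 (21.4, 79.2 and 63.5 CPM, 3.50 ± 0.52, edgeR adjusted p = 2.73e-05) were also lowest in run 1 and still above all microglial runs.

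The signalling members were unequal. Irf7 went from 5.36 ± 1.06 CPM (SD, n = 3) to 50.6, 152 and 56.4 CPM (log2 difference 3.99 ± 0.37, edgeR adjusted p = 3.62e-08). Stat2 was at 40.8, 67 and 49.4 CPM against 18.7 ± 3.09 CPM (1.58 ± 0.34, edgeR adjusted p = 0.00163). Irf9 was at 66.1, 61 and 63.5 CPM against 52.1, 47.3 and 49.2 CPM, so its groups did not overlap, yet its log2 difference of 0.55 ± 0.23 did not pass (edgeR adjusted p = 0.106). Irf9 overlaps Rnf31 on the same strand, and its counts are uncertain to that extent.

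Gbp3, a guanylate-binding GTPase, passed the test (log2 difference 1.61 ± 0.55, edgeR adjusted p = 0.0389), but its border level of 9.72 CPM in run 1 was below the 11.1 CPM of microglia there. Ifi44, a gene of little known function, was at 9.72, 18.3 and 3.53 CPM in border macrophages and at no more than 0.191 CPM in microglia. The Schlafen genes, an interferon-induced family of growth and RNA regulators, were split: Slfn5 (68.1, 134 and 109 CPM) and Slfn2 (282, 360 and 451 CPM) were above all microglial runs, while Slfn8 (101, 67 and 109 CPM against 82.2, 50.3 and 76.4 CPM) overlapped them.

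MHC class II-high cells were compared with the same microglial sums, so the result is not independent of that for border macrophages. The 42 genes together gave 7236, 10169 and 4348 CPM, or 7251 ± 2911 CPM (SD, n = 3). With no filter 33 of 42 genes were higher than in microglia and 0 lower (edgeR), where 6.23% of all genes were higher and 5.45% lower, and the median log2 difference was 2.88 against -0.73 over all genes. With the filter 30 of 35 genes were higher and 0 lower, where 15.7% of all tested genes were higher and 13.8% lower. Without cells carrying transcripts of both sexes 27 were higher. Most of these genes passed the filter with the help of another population, so this share too is no support. Of those over the filter level in every microglial run, Bst2, Slfn2, Parp14, Lgals3bp and Trim30a were higher. Irf9, Ifi35, Slfn8 and Eif2ak2 of that group did not pass. The genes that did not pass without the filter were Irf9, Ifi35, Slfn8, Ifih1, Ddx58, Dhx58, Eif2ak2, Trim30a and Ifi44. Ifi44 had 0 UMIs in these cells in each run, which allows up to 48.1, 33.9 and 11.5 CPM at the upper exact 95% Poisson bound.

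The genes with the largest differences that met the naming rule were Oasl1, Zbp1, Ifitm3, Rsad2 and Gbp2. Oasl1 was at 26.1, 184 and 49.9 CPM in MHC class II-high cells (log2 difference to microglia 8.20 ± 0.91, edgeR adjusted p = 4.96e-07) and Rsad2 at 117, 275 and 12.5 CPM (6.20 ± 0.96, edgeR adjusted p = 3.68e-05). The second run was the highest for both, and in it 1 of 16 thinned cells held UMIs of all 8 genes used as anchors below, which include both of them. Zbp1 was at 156, 101 and 93.6 CPM (6.30 ± 0.46, edgeR adjusted p = 9.44e-10) and Ifitm3 at 900, 1634 and 917 CPM (6.28 ± 0.28, edgeR adjusted p = 2.98e-13). Gbp2, a GTPase that acts on pathogen vacuoles and is known to respond to interferon gamma, rose from 4.77, 5.9 and 4.95 CPM to 91.3, 431 and 190 CPM (5.67 ± 0.42, edgeR adjusted p = 1.03e-09).

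The other members named in every comparison followed. Irf7 was at 104, 376 and 93.6 CPM (log2 difference 5.28 ± 0.38, edgeR adjusted p = 8.04e-10) and Ifi27l2a at 1200, 2304 and 627 CPM (5.56 ± 0.30, edgeR adjusted p = 7.75e-12). Oasl2 was at 209, 184 and 59.3 CPM (5.11 ± 0.49, edgeR adjusted p = 5.96e-08) and Isg15 at 274, 202 and 59.3 CPM (4.40 ± 0.43, edgeR adjusted p = 9.25e-08). Run 3, which supplied most of these cells, was the lowest for these 4 genes.

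Usp18 (39.1, 110 and 31.2 CPM, log2 difference 3.69 ± 0.61), Ifit3 (156, 45.9 and 49.9 CPM, 3.02 ± 0.62) and Bst2 (861, 1808 and 533 CPM, 2.89 ± 0.27) were also higher, with edgeR adjusted p of 7.14e-05, 0.000704 and 3.43e-08. Stat2 was at 78.2, 55.1 and 43.7 CPM (1.84 ± 0.42, edgeR adjusted p = 0.00183). Each MHC class II-high run of these 4 genes was above all microglial runs. Irf9, at 65.2, 55.1 and 49.9 CPM, overlapped microglia (0.47 ± 0.31, edgeR adjusted p = 0.264). The kinase gene Eif2ak2 encodes the double-stranded RNA sensor PKR. It was at 52.2, 9.18 and 46.8 CPM against 43.7, 34.6 and 48.3 CPM in microglia. Its log2 ratios by run were 0.25, -1.81 and -0.04. The log2 difference of 0.13 ± 0.40 did not pass (edgeR adjusted p = 0.848) and leaves both directions possible.

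The populations were then compared with each other. With the filter, 2 of 35 genes were higher in MHC class II-high cells than in border macrophages and 0 were lower (edgeR), where 4.79% of all tested genes were higher and 4.52% lower, so the share of members is close to the background. Without the filter 3 of 42 were higher and 0 lower, where 1.48% of all genes were higher and 1.59% lower, the third being Isg15 (log2 difference 1.11 ± 0.34, edgeR adjusted p = 0.0414). Gbp2 was at 91.3, 431 and 190 CPM against 15.6, 201 and 52.9 CPM in border macrophages, higher in each run (log2 difference 1.85 ± 0.43, edgeR adjusted p = 0.00854). Irf7 was at 104, 376 and 93.6 CPM against 50.6, 152 and 56.4 CPM, also higher in each run (1.29 ± 0.38, edgeR adjusted p = 0.0369). The ranges of both genes overlapped between populations, because run 2 was the highest in each, and the differences stand within the runs.

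The call for Irf7 was not stable. It was lost with no run term (edgeR adjusted p = 0.191), by DESeq2, with stricter cell filters and with border macrophages taken at 2 or at 4 markers. It was also lost with run 1 left out (edgeR adjusted p = 0.0834), with run 2 left out (0.183) and without cells carrying transcripts of both sexes (log2 difference 0.93, 0.234). The same held without cells of 3 or more anchor genes by unthinned counts (log2 difference 0.65, edgeR adjusted p = 0.520). The call for Gbp2 was lost, of the alternatives run, only when the run was not used as a block (1.89, edgeR adjusted p = 0.130).

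Other members turned on single runs. Ifit3 was lower in MHC class II-high cells in runs 2 and 3 and higher in run 1 (log2 ratios 1.56, -1.77 and -2.28), which left a log2 difference of -0.95 ± 0.55 (edgeR adjusted p = 0.344). Without run 1 it was -2.03, with an edgeR adjusted p of 0.00115. Isg15 was higher in runs 1 and 2 and lower in run 3 (2.36, 0.96 and -0.45; log2 difference 1.16 ± 0.45, edgeR adjusted p = 0.123), and without run 3 it was 1.96 (edgeR adjusted p = 0.00736). Rsad2 went from 4.11 in run 1 to -4.00 in run 3, with a log2 difference of 0.34 ± 0.87 (edgeR adjusted p = 0.892). Intervals this wide leave both directions possible for these genes.

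Ifitm3 (log2 difference 0.55 ± 0.24, edgeR adjusted p = 0.166) and Ifi27l2a (0.43 ± 0.26, 0.359) did not pass the test between the populations. Values for Stat2 (0.26 ± 0.45, edgeR adjusted p = 0.808), Oasl2 (0.21 ± 0.45, 0.850), Bst2 (0.20 ± 0.26, 0.718), Usp18 (0.19 ± 0.60, 0.919) and Irf9 (-0.08 ± 0.34, 0.943) lay within 1 SE of 0.

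**Figure D3:**
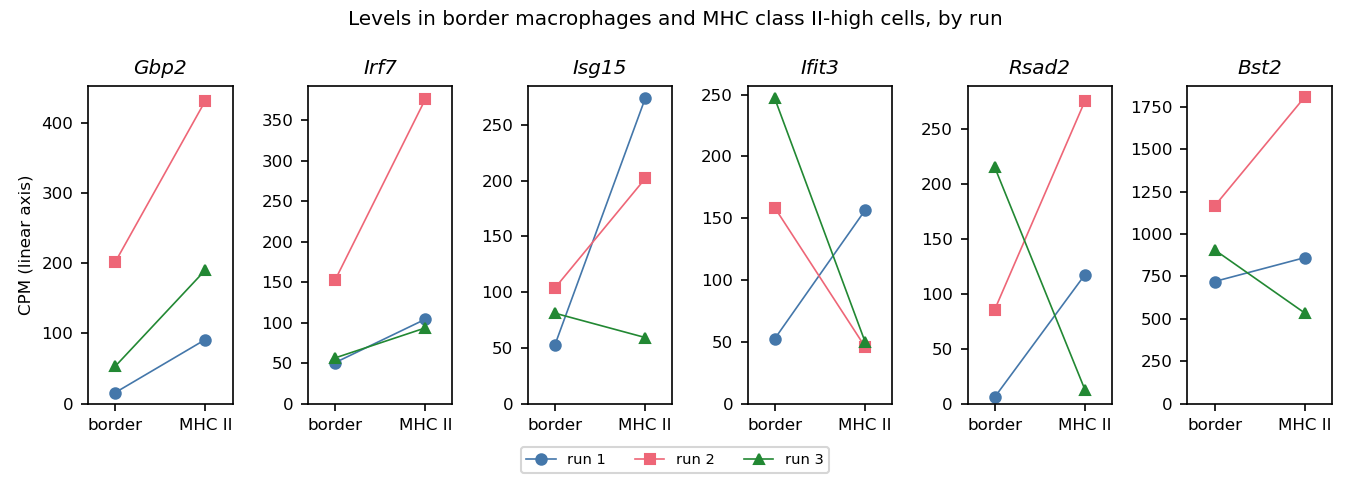
CPM of 6 genes in border macrophages (border) and MHC class II-high cells (MHC II), 1 line per run, on linear axes that start at 0 and differ in scale. The 3 lines of Gbp2 and of Irf7 rise, while those of Isg15, Ifit3, Rsad2 and Bst2 cross.

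The question of graded against all-or-none induction was put to single microglial cells. A group of 8 members, Ifit1, Ifit2, Ifit3, Isg15, Rsad2, Cmpk2, Oasl1 and Usp18, served as anchors, and the number of them with a UMI after thinning to 2000 UMIs placed each cell in a bin. The other 34 members were the readouts, which the binning did not use. Of 18546 microglia, 17769 held no anchor, 665 held 1, 65 held 2, 24 held 3, 9 held 4, 9 held 5, 3 held 6 and 2 held 7. At least 3 anchors were found in 25, 7 and 15 cells of runs 1, 2 and 3, which is 0.379% (exact 95% binomial interval 0.245 to 0.558%), 0.113% (0.0456 to 0.233%) and 0.260% (0.146 to 0.429%) of microglia, a mean of 0.251 ± 0.133% (SD, n = 3). Run 1 was above run 2 beyond these intervals, which hold counting error and no other source.

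Readouts per cell shifted with the anchors in steps. Cells with no anchor held a median of 1 readout of 34 (quartiles 1 and 2, highest 13), cells with 1 anchor 2 (1 and 4, highest 17), cells with 2 anchors 7 (5 and 10, from 0 to 17), and cells with at least 3 anchors 12 (9 and 16, from 4 to 22). The medians of the last bin were 12, 13 and 12 in runs 1, 2 and 3. At least 6 readouts were held by 1.40% of cells with no anchor, 17.0% of those with 1, 69.2% of those with 2 and 93.6% of those with 3 or more. All cells were thinned alike, and the median UMI counts of the bins before thinning were 3862, 3962, 3867 and 4384. Thinning can hide an anchor that a cell held. At least 3 anchors were found in 47 microglia after thinning and in 104 without it. Lower bins can thus hold cells with more anchors before thinning. The steps by themselves cannot tell graded from all-or-none induction.

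The cells with a single anchor were mixed. At most 3 readouts were held by 66.8% of them, as by most cells with no anchor, while 17.0% held at least 6, a share of 14.4, 12.3 and 27.4% in runs 1, 2 and 3. At 2 anchors 12.3% of cells held at most 3 readouts, and of the 47 cells with 3 or more anchors 0 did, which allows a share of up to 6.38% by a limit of 3 counts.

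**Figure D4:**
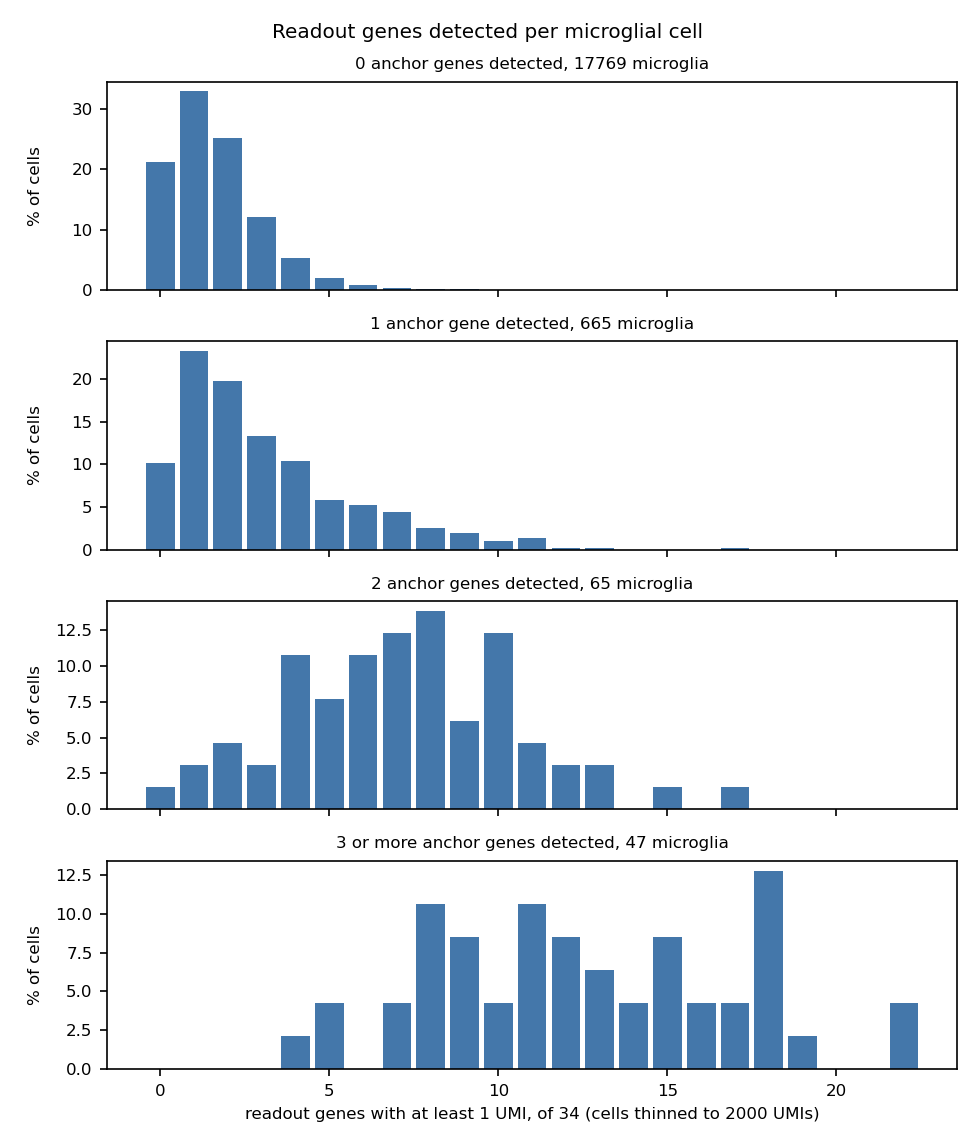
Percent of microglial cells (vertical axis, scaled by panel) by the number of the 34 readout genes with at least 1 UMI in a cell thinned to 2000 UMIs (horizontal axis), for cells with 0, 1, 2 and 3 or more anchor genes. The bulk moves from a median of 1 to 2, 7 and 12 readouts.

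Summed UMIs of the readouts rose with each bin. The 34 readouts gave 933, 846 and 926 CPM in cells with no anchor, 1872, 1600 and 2268 CPM with 1, 5578, 5248 and 5305 CPM with 2 and 9703, 10517 and 10358 CPM with 3 or more. No bin overlapped another over the 3 runs. Against cells with no anchor and with no filter, 23 of 34 readouts were higher at 1 anchor, 28 at 2 and 30 at 3 or more, and 0 were lower in each (edgeR). The share of all genes called higher was 0.327%, 0.442% and 1.06% in these comparisons, and that called lower 0.0164%, 0.0981% and 0.354%. The 3 comparisons share the cells with no anchor. With the filter, 24, 28 and 31 of 31 tested readouts were higher and 0 lower, where 0.937%, 1.38% and 2.61% of all tested genes were higher and 0.0293%, 0.0732% and 0.571% lower, and 21 of the 31 were not over the filter level of 23.2 CPM in every run of cells with no anchor.

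At the membrane, Ifitm3 was at 10.5, 10.1 and 12.1 CPM in cells with no anchor, 62.6, 60 and 126 CPM with 1, 391, 450 and 493 CPM with 2 and 649, 1511 and 847 CPM with 3 or more. Bst2 was at 156, 161 and 144 CPM, then 250, 239 and 261 CPM, 659, 797 and 754 CPM, and 914, 978 and 964 CPM. In both genes every bin lay above the one before. The log2 difference between 3 or more anchors and none was 6.27 ± 0.20 for Ifitm3 and 2.59 ± 0.13 for Bst2 (edgeR adjusted p = 9.35e-58 and 7.85e-37).

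Ifi27l2a did not go on rising. It was at 29.7, 26.4 and 25.4 CPM with no anchor, 141, 63.7 and 127 CPM with 1, 307, 450 and 275 CPM with 2 and 195, 326 and 278 CPM with 3 or more, where the last pair of bins overlapped. Its log2 difference to cells with no anchor was 3.59 ± 0.23 at 2 anchors and 3.06 ± 0.29 at 3 or more (edgeR adjusted p = 1.24e-27 and 1.98e-16).

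Signalling members rose too, to different degrees. Irf7 was at 3.47, 4 and 2.53 CPM with no anchor, 27.6, 17.1 and 31 CPM with 1, 71.8, 167 and 72.5 CPM with 2 and 251, 415 and 190 CPM with 3 or more (log2 difference of the last bin 6.27 ± 0.37, edgeR adjusted p = 2.49e-31). Stat2 went from 18.8, 14.1 and 18 CPM to 174, 119 and 292 CPM in the last bin (3.48 ± 0.32, edgeR adjusted p = 1.54e-17). Irf9 went from 50.3, 46.3 and 47.9 CPM to 77.8, 62.5 and 79 CPM at 1 anchor and 137, 116 and 101 CPM at 2. At 3 or more anchors Irf9 was at 105, 59.3 and 146 CPM, and the call there rested on the filter and on runs 1 and 3. Its log2 difference was 1.15 ± 0.33 (edgeR adjusted p = 0.0241), without the filter 1.01 (0.125), without run 1 and without run 3 an edgeR adjusted p of 0.356 and 0.422.

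Of the enzymes and sensors, Oasl2 rose from 1.99, 2.11 and 2.26 CPM to 377, 563 and 336 CPM at 3 or more anchors (log2 difference 7.52 ± 0.34, edgeR adjusted p = 1.38e-42). Ifi204 rose from 4.05, 2.83 and 4.75 CPM to 502, 326 and 409 CPM (6.70 ± 0.29, edgeR adjusted p = 1.7e-43) and Zbp1 to a mean of 105 CPM (6.99 ± 0.60, edgeR adjusted p = 2.16e-19). The groups were far apart in each of these genes. Slfn5 rose from 1.96, 2.2 and 3.62 CPM to 412, 207 and 394 CPM (7.15 ± 0.33, edgeR adjusted p = 4.79e-41). Ifit3b had the largest difference of all readouts, 9.43 ± 0.43, but as a near copy of the anchor Ifit3 it is not an independent readout.

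At 1 anchor the genes with the largest differences that met the naming rule were Oasl2 (log2 difference to cells with none 3.45 ± 0.33), Slfn5 (2.96 ± 0.34), Irf7 (2.92 ± 0.30), Ifitm3 (2.86 ± 0.16) and Rtp4 (2.40 ± 0.12), with edgeR adjusted p of at most 4.28e-12. At 2 anchors those genes were Ifit3b (7.44 ± 0.64), Zbp1 (6.30 ± 0.66), Oasl2 (5.64 ± 0.50), Ifitm3 (5.33 ± 0.24) and Ifi204 (5.22 ± 0.39), with edgeR adjusted p of at most 4.56e-14. Each was higher in all 3 runs. Of the others, Ifi27l2a had a log2 difference of 2.05 ± 0.12, Stat2 1.09 ± 0.19, Bst2 0.70 ± 0.07 and Irf9 0.60 ± 0.12 at 1 anchor (edgeR adjusted p at most 0.000369). At 2 anchors Irf7 had one of 4.84 ± 0.49, Bst2 2.21 ± 0.13, Stat2 2.20 ± 0.41 and Irf9 1.33 ± 0.29 (edgeR adjusted p at most 0.000949).

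The smallest rises at 3 or more anchors, apart from Irf9, were those of Ifi35 (2.06 ± 0.25), Slfn8 (2.18 ± 0.21) and Gbp3 (2.24 ± 0.56) on the log2 scale. Gbp2 was at 4.52, 5.58 and 4.34 CPM with no anchor, 7.27, 6.12 and 5.64 CPM with 1 (log2 difference 0.47 ± 0.44, edgeR adjusted p = 0.997) and 20.9, 59.3 and 117 CPM with 3 or more (3.52 ± 0.66, edgeR adjusted p = 3.17e-05). Its last bin spread over more than the others.

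**Figure D5:**
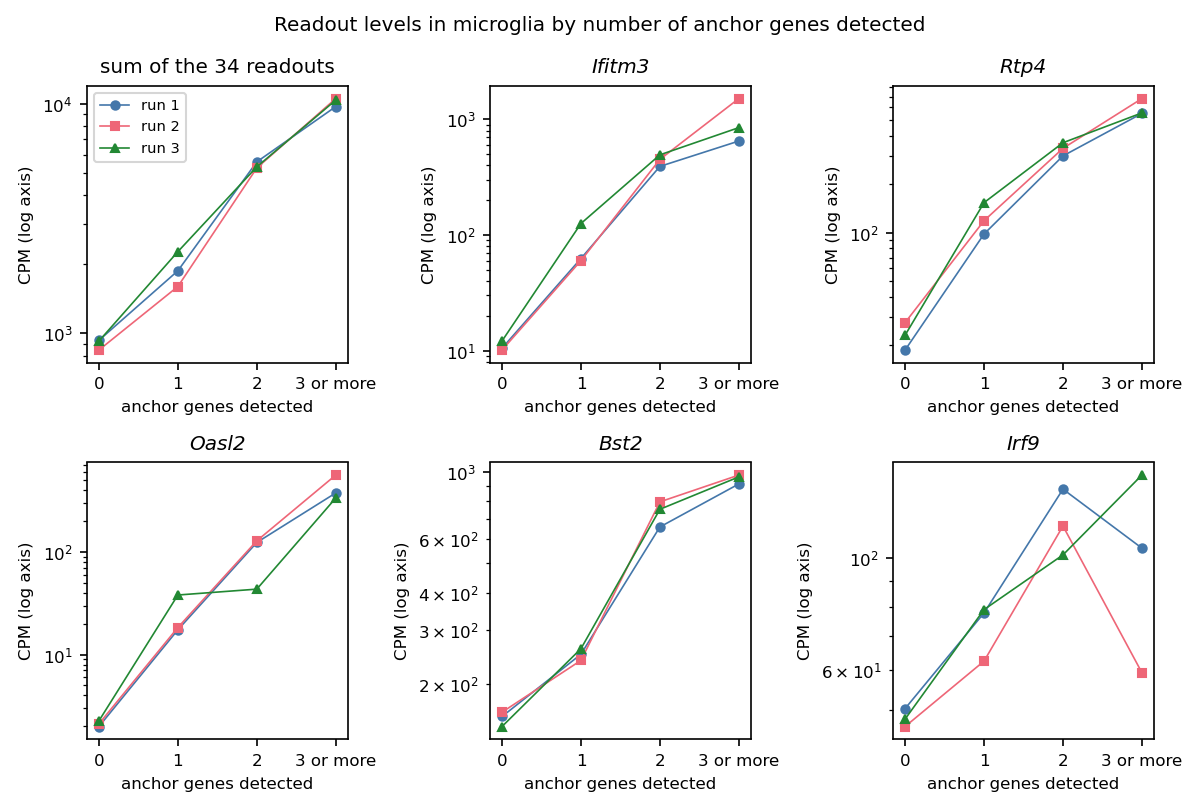
CPM on log axes by the number of anchor genes detected, 1 line per run, for the sum of the 34 readouts and for 5 readout genes. The sum rises from 902 to 10193 CPM on average, Ifitm3, Rtp4, Oasl2 and Bst2 rise in each run, and Irf9 peaks at 2 anchors in runs 1 and 2.

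Both more cells with a UMI and more UMIs per such cell went into these sums. Bst2 was detected in 25.5% of thinned microglia with no anchor, 34.4% with 1, 61.5% with 2 and 78.7% with 3 or more, and its positive cells held 1.20 UMIs on average in the first bin and 2.57 in the last. Ifitm3 was detected in 1.54, 8.12, 36.9 and 63.8% of cells in the same order, with 1.26 UMIs per positive cell in the first bin and 2.67 in the last. Irf9 was detected in 9.13, 13.5, 23.1 and 10.6%. A cell type that should lack these genes was not defined here, so the share due to free RNA was not tested.

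Most UMIs of most members lay outside the cells with 3 or more anchors. These 47 cells held 1.60% of the thinned microglial UMIs of Bst2, 0.32% of Irf9 and 0.73% of Ifi35, but 13.8% of Ifitm3, 14.9% of Mx1, 20.3% of Ifi204 and 25.5% of Oasl2. Among the anchors, UMIs came together in cells: Ifit3 was found in 33.0% of the 103 cells with an Ifit1 UMI and in 1.13% of the others, and Isg15 in 24.3% against 1.34%. Of the 49 cells with an Rsad2 UMI, which encodes viperin, 38.8% held Ifit3, against 1.21% of the others.

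A second set of 8 members, Oasl2, Rtp4, Irf7, Xaf1, Ifi204, Trim30a, Zbp1 and Herc6, was used as anchors in turn so that the genes of the first set could be tested. At least 3 of them were held by 86, 42 and 72 microglia. With no filter 31 of the 34 other members were higher and 0 lower there than in microglia with none (edgeR), where 0.978% of all genes were higher and 0.141% lower. With the filter 29 of 29 were higher, where 1.63% of all tested genes were higher and 0.182% lower. The filter can pass a member through the chosen cells alone: Ifit3b and Rsad2 were at 0.316 and 0.416 CPM in cells with none. The filtered share is therefore no support. Ifit3 had a log2 difference of 6.62 ± 0.20, Ifit1 6.88 ± 0.41, Ifit2 6.76 ± 0.36, Ifit3b 8.42 ± 0.49 and Rsad2 7.53 ± 0.53 (edgeR adjusted p at most 2.21e-42). Isg15 had one of 5.73 ± 0.21 and Usp18 one of 5.45 ± 0.37 (edgeR adjusted p at most 1.24e-45). The anchors of the first set were thus higher in cells chosen without them. At the membrane the log2 differences were 5.63 ± 0.15 for Ifitm3, 3.32 ± 0.16 for Ifi27l2a and 2.17 ± 0.09 for Bst2 (edgeR adjusted p at most 1.01e-89). Stat2 had a log2 difference of 2.48 ± 0.24 and Irf9 one of 1.19 ± 0.18 (edgeR adjusted p = 3.77e-23 and 1.71e-08). The genes Ifi44, Oas2 and Oas3 did not pass.

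Microglial markers summed to 27602, 34514 and 30415 CPM in the cells with 3 or more anchors. The rule for microglia required at least 3 of these markers, so their presence is a description and no test. The 6 dendritic cell markers were at 0 UMIs in all 3 runs and the 6 monocyte markers summed to 34.9, 29.6 and 73 CPM, with Ccr2, Chil3, Ly6c2 and Vcan at 0. Plac8, which is on the monocyte list, was at a mean of 45.8 CPM there, against 1.36 CPM in cells with no anchor. Cells with a high share of MHC class II UMIs, or with 3 or more markers of either of those lists, had been left out of microglia. The levels of these lists are therefore limited by construction.

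Border macrophages and MHC class II-high cells carried the module in most of their cells. Thinning left out cells below 2000 UMIs. In runs 1, 2 and 3 these were 0, 8 and 2 border macrophages and 0, 4 and 0 MHC class II-high cells. At 2000 UMIs the median border macrophage held UMIs of 6 of the 42 genes and 61.1% held at least 5, and the median MHC class II-high cell also held 6, with 59.7% at 5 or more, against 4.96% of microglia. At least 3 anchors were held by 0 of 61, 4 of 28 and 5 of 55 border macrophages, 6.25% over the runs (exact 95% binomial interval 2.90 to 11.5%), and the 0 in run 1 allows up to 4.92% by the limit of 3 counts. MHC class II-high cells with at least 3 anchors numbered 1, 2 and 2 in the runs, 8.06% of 62 (2.67 to 17.8%). Border macrophages with no anchor still showed Bst2 in 72.3%, Ifi27l2a in 55.4% and Ifitm3 in 51.5% of cells, and MHC class II-high cells with none showed Bst2 in 60.9% and Ifi27l2a in 52.2%. In microglia with no anchor the shares for Bst2, Ifi27l2a and Ifitm3 were 25.5, 3.46 and 1.54%.

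The populations were also compared without cells of 3 or more anchors, counted for this step without thinning. This left 6628, 6518 and 5898 microglia in runs 1, 2 and 3. It also left 57, 28 and 50 border macrophages and 8, 17 and 32 MHC class II-high cells. More cells were thus left out than the thinned counts above hold. With every cell of 3 or more anchors left out, 17 of 23 tested readouts were higher than in microglia in border macrophages and 17 of 23 in MHC class II-high cells (edgeR), where 12.2% and 15.1% of all tested genes were. Of the 9 members over the filter level in every microglial run, Bst2, Slfn2, Lgals3bp and Parp14 were higher in border macrophages and Bst2, Slfn2 and Lgals3bp in MHC class II-high cells, while the other readouts passed the filter with the help of another population. With those cells kept, 20 and 19 of the same 23 were higher, and the median log2 difference moved from 2.61 to 2.37 and from 2.50 to 2.22. Ifit1, Ifit2, Ifit3 and Rsad2 are anchors, which this step lowers by construction, and they are not counted here.

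The rest of the pathway was read from lists written with earlier results of these data known. Of 12 interferon genes, all 12 had 0 UMIs in border macrophages and in MHC class II-high cells, and microglia gave a sum of at most 0.0636 CPM per run. In the cells with 3 or more anchors the list summed to 6.98, 0 and 0 CPM, with 11 of 12 at 0 and a single UMI of Ifnb1, the interferon beta gene, in run 1. Of 7 tested receptors and kinases, Ifnar1 (log2 difference 1.24 ± 0.22), a chain of the type I receptor, and Il10rb (0.66) were higher in border macrophages, and Ifngr1, the ligand-binding chain of the interferon gamma receptor, was lower in MHC class II-high cells (-1.13 ± 0.21) and in microglia with 3 or more anchors (-0.58 ± 0.13), by edgeR at an adjusted p of 0.05.

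Of the regulators, the transcription factor Irf1 was higher in border macrophages (log2 difference 1.51 ± 0.42) and in microglia with 3 or more anchors (2.16 ± 0.31), and the feedback inhibitor Socs1 was higher in the latter (2.54 ± 0.62), by edgeR at an adjusted p of 0.05. Of the sensors and adaptors, Samhd1, which depletes nucleotides, was higher in border macrophages, in MHC class II-high cells and in microglia with 2 and with 3 or more anchors, and Tmem173, which encodes STING, was lower in border macrophages and MHC class II-high cells.

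Of 40 further interferon-induced genes found in the files, 24 of 27 tested were higher in border macrophages (13.1% of all tested genes), 22 of 27 in MHC class II-high cells (15.7%), and 12, 17 and 24 of 26 in microglia with 1, 2 and 3 or more anchors (0.937%, 1.38% and 2.61%), and 0 were lower in each (edgeR). Only 9 of the 27 were over the filter level in every microglial run, of which 8 were higher in border macrophages and 6 in MHC class II-high cells. In cells with no anchor 12 of the 26 were over it in every run, of which 5, 9 and 12 were higher with 1, 2 and 3 or more anchors. The 12 include B2m, the light chain of MHC class I, Tap1, which carries peptides to it, and the proteasome subunit Psmb9. Between MHC class II-high cells and border macrophages, Cxcl9, Ciita, Phf11b, Ms4a4c and Psmb8 were higher and Gbp7 lower. Of these, Cxcl9 encodes a chemokine and Ciita the master regulator of MHC class II genes, which chose the population.

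Depth and run-level differences were read beside these results. Immediate early genes, which respond to tissue handling among other stimuli, summed to 400, 559 and 2742 CPM in microglia of runs 1, 2 and 3, while the module summed to 1085, 933 and 1037 CPM. In microglia with 3 or more anchors 0 of 8 tested immediate early genes were higher and Junb was lower (edgeR), while in border macrophages and in MHC class II-high cells 4 of 8 were higher in each. Their part in those comparisons was not tested.

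Microglia were last divided by sex-linked transcripts, since each run held cells with Xist and cells with Y-linked transcripts. The Xist set held 2647, 3444 and 2489 cells and the Y-linked set 2261, 1301 and 1606. Of 37 members tested with the filter, 1 was higher in the Xist set and 0 lower (edgeR), where 0.211% of all tested genes were higher and 0.158% lower. The one was Oasl2, at 6.23 ± 1.89 CPM against 2.56 ± 0.183 CPM (SD, n = 3; log2 difference 1.38 ± 0.23, edgeR adjusted p = 0.00565). It was higher in all 3 runs, most in run 1 (log2 ratios 1.48, 0.64 and 0.86), and without run 1 the difference was 0.95 and did not pass (edgeR adjusted p = 0.272). Without the filter 12 of 42 were higher and 0 lower, where 0.566% of all genes were higher and 0.353% lower, and DESeq2 called 0 with the filter. The other members named throughout did not pass. Ifit3 had a log2 difference of 0.97 ± 0.21 (edgeR adjusted p = 0.0561), Isg15 0.52 ± 0.15 (0.199), Ifitm3 0.47 ± 0.17 (0.351), Usp18 0.42 ± 0.21 (0.523) and Irf7 0.37 ± 0.21 (0.616). Ifi27l2a had one of 0.18 ± 0.17 (edgeR adjusted p = 0.810), Irf9 -0.07 ± 0.06 (0.751), Bst2 0.02 ± 0.05 (0.932) and Stat2 0.01 ± 0.11 (0.993). Of these genes Ifit3 was higher in the Xist set in all 3 runs and Irf9 lower in all 3. Since the animals of each sex in a run are not given, sex and animal cannot be told apart.

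In run 1, 17 of the cells with 3 or more anchors were in the Xist set and 4 in the Y-linked set, against 2459 and 2166 among cells with no anchor. In runs 2 and 3 the numbers were 4 and 1 and 2 and 1. The Xist set made up 53.2, 72.7 and 60.5% of the sexed cells with no anchor in runs 1, 2 and 3, and 63.2, 69.0 and 65.2% of those with 1, so the share was higher with 1 anchor in runs 1 and 3 and lower in run 2. With 2 anchors the Xist and Y-linked sets held 18 and 7 cells in run 1, 10 and 2 in run 2 and 7 and 7 in run 3. No test was made, since cells of a run are not replicates.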

How the data were processed

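The deposited values are counts, UMIs per gene and barcode in 3 runs, made by the authors with Cell Ranger on mm10, with Seurat 4.0 also listed, per the submitters' processing notes; per the file headers the counting software was version 3.0.2 in run 1 and 3.1.0 in runs 2 and 3. How barcodes were chosen is not given in the sources used here. Runs held 7255, 6895 and 6226 barcodes and 34140879, 24717907 and 24225612 UMIs. The members and all gene lists were chosen with earlier results of these data known.

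For each population, the counts of its cells in a run were added up, and the sums were compared with edgeR 4.0.16 (glmQLFit and glmQLFTest, TMM, filterByExpr, R 4.3.3) with the run as a block. P-values were adjusted by Benjamini-Hochberg over all genes, leaving out the genes that chose the cells, at a threshold of 0.05. The block pairs sums that share a library; across genes (not independent replicates) the sums of a run departed from their population's mean together, with correlations of 0.119 to 0.721. The labels do not say that runs hold separate animals, so p-values do not measure the spread between animals. The edgeR fits also estimate a gene's spread partly from other genes. The weight of this shared part (prior degrees of freedom) was 16.8 for the populations and 15.9 for the sex-linked sets. It was 122 for the anchor bins and infinite for the second anchor set. Small p-values of the anchor fits thus rest little on a gene's own spread between runs. In populations and bins, cells with UMIs of at least 3 markers of another class were left out, except that dendritic cell and monocyte markers did not remove MHC class II-high cells. No doublet caller was run, and doublets were weighed by cells holding Xist and Y-linked UMIs. The Xist set held at least 2 Xist UMIs and no Y-linked UMI, the Y-linked set at least 1 UMI of 4 Y-linked genes and no Xist UMI. Thinning used Python 3.11.15 and numpy 2.4.6 with seed 1. Where cells of 3 or more anchors were left out of the populations, anchors were counted without thinning. A pseudocount of 1 CPM went into the log2 ratio of each run. Binomial intervals and the limit of 3 counts for a count of 0 cover counting error only.

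Full statistics were given for the 5 members with the largest change in each direction among those with at least 20 CPM, an adjusted p under 0.05 and the same direction in 3 runs, and for Irf7, Irf9, Stat2, Bst2, Ifitm3, Isg15, Ifit3, Ifi27l2a, Usp18 and Oasl2 throughout; other members are named with values only. The tests were tested on simulated data. Alternatives were DESeq2 1.42.0 (size factors and Wald test), no filter, no block, leaving out each run, stricter cell filters, other marker and anchor numbers, and other thinning. Some genes of the pathway and marker lists are not reported here.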

Additional observations from a re-analysis of the deposited data

Results flagged for a closer look

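Among the members, 2 genes differed between border macrophages and MHC class II-high cells by a test of the difference itself, the edgeR quasi-likelihood test with Benjamini-Hochberg adjustment. Gbp2 was higher in MHC class II-high cells by 1.85 on the log2 scale, in 3 of 3 runs, and Irf7 by 1.29, also in 3 of 3 runs. These are 2 of 35 members tested, near the 4.79% of all tested genes called higher. The call for Irf7 was lost with no block, by DESeq2, with run 1 or run 2 left out and without cells carrying transcripts of both sexes, and that for Gbp2 with no block. Groups of 3 runs are too small to look for single outlying values.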

How the results depend on the processing

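Of 1400 values recomputed under alternatives (counts of members, counts over all genes and the named genes), 1287 kept their direction and side of the threshold or, for counts, stayed within 1.5 times. Without cells of 3 or more anchors by unthinned counts, 18 members instead of 30 were higher in border macrophages. In MHC class II-high cells 17 instead of 30 were higher. Of all tested genes 12.2% and 15.1% were higher there. In these fits anchors fall by construction and fewer genes are tested. Between MHC class II-high cells and border macrophages 2 members were higher, against 1 by DESeq2's Wald test, 0 with no replicate block, 1 without cells carrying transcripts of both sexes and 1 without cells of 3 or more anchors. At 1 anchor 24 readouts were higher, and 13 with no replicate block. The block changed no other count of members by over 1.5 times except in the comparison by sex-linked transcripts, where 1 member was higher, against 0 with no replicate block, 0 by DESeq2's Wald test, 2 with DESeq2 size factors, 2 with stricter cell filters and 12 with no filter. The share of microglia with 3 or more anchors, 0.251%, was 0.441% with thinning to 3000 UMIs and 0.541% with no thinning, and 2 or more anchors were held by 0.597%. The cause of these shifts was not tested. Shares of all genes are not given for most of the other alternatives, so those counts are not set against a background.

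With each run left out in turn, members higher numbered 24 to 30 in border macrophages and 23 to 29 in MHC class II-high cells. Between these populations 1 to 5 were higher. With all runs 13.1%, 15.7% and 4.79% of all tested genes were higher in these comparisons. Readouts higher numbered 19 to 21 at 1 anchor, 23 to 28 at 2, 28 to 31 at 3 or more and 26 to 30 with the second anchor set. With all runs 0.937%, 1.38%, 2.61% and 1.63% of all tested genes were higher in these comparisons. Members higher in the Xist set numbered 0 to 13, where with all runs 0.211% of all tested genes were higher. The shares of all genes with a run left out are not given here, so these ranges show only how far the counts moved. The share of cells with 3 or more anchors was 0.187 to 0.319%.

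Apart from Ifit3, which passed without run 1 (-2.03), directions that turned belonged to genes not past the threshold. Between MHC class II-high cells and border macrophages the log2 differences that turned were those of Irf9 (-0.18 to 0.084 with each run left out in turn, 0.13 without cells of both sexes, 0.056 at an MHC share of 0.25%), Stat2 (-0.17 to 0.58 with each run left out, -0.03 without cells of both sexes, -0.21 at a share of 1%) and Bst2 (-0.10 to 0.63 with each run left out, -0.042 with stricter cell filters). Leaving out each run gave -2.03 to 0.18 for Ifit3 and -0.55 to 0.94 for Oasl2, which was -0.28 without cells of 3 or more anchors. Usp18 was -0.18 to 0.89 with each run left out, -0.025 in a fit of 2 populations, -0.024 without cells of both sexes and -0.40 with border macrophages taken at 2 markers. Between the sex-linked sets, Stat2 became -0.036 by DESeq2's Wald test, -0.032 with no replicate block and -0.21 to 0.11 with each run left out, which gave -0.037 to 0.073 for Bst2, -0.0071 to 0.68 for Ifitm3 and -0.41 to 0.49 for Ifi27l2a.

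Depth limits the MHC class II-high cells most, with 76697 UMIs in run 1, and the 7 microglia with 3 or more anchors in run 2.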

Other observations

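Genes outside the module rose with it in microglia. Against cells with no anchor, 147 genes that are no members were higher in microglia with 3 or more anchors (edgeR quasi-likelihood, Benjamini-Hochberg adjustment). Of these, 101 met the rule for naming genes. Of all 6827 tested genes, members among them, 178 (2.61%) were higher and 39 (0.571%) lower. Ccl12, a chemokine that draws monocytes, was at 3746 ± 794 CPM against 126 ± 32.1 CPM (SD, n = 3), a log2 difference of 4.84 ± 0.10 (SE), and was higher in 3 of 3 runs. The DNA-binding genes Ifi206, Ifi207 and Ifi209, relatives of the member Ifi204, had log2 differences of 8.92 ± 0.91, 8.56 ± 0.61 and 6.05 ± 0.37, and were at 60.0, 124 and 245 CPM against 0.105, 0.315 and 3.62 CPM. Iigp1, a GTPase of the immunity-related family, was at 91.1 CPM against 0.214 CPM (8.51 ± 0.72). The others of the 10 with the largest rise were Phf11a (6.14 ± 0.96), Gm4951 (5.47 ± 0.35), Slfn9 (4.97 ± 0.48), Plac8 (4.91 ± 0.82) and Fgl2 (4.84 ± 0.41). Each was higher in all 3 runs, and the sums behind Ifi206 and Phf11a hold only 16 and 10 UMIs in the cells with 3 or more anchors. Apart from Ccl12, the genes named here had a mean in cells with no anchor under the filter level of 23.2 CPM. They passed the filter with the help of other bins, so their calls are no support.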
